A study of Mus musculus with 4 samples.

Results

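The pyruvate dehydrogenase complex is the mitochondrial enzyme assembly that turns pyruvate into acetyl-CoA and so links glycolysis to the citric acid cycle. Its transcripts, and those of the kinases and phosphatases that switch it off and on, were followed here in IMS32 cells. This is an immortalized mouse line of Schwann cells, the glia that wrap peripheral nerve axons. The 10 genes were Pdha1, Pdhb, Dlat and Pdhx for the complex, Pdk1, Pdk2, Pdk3 and Pdk4 for the kinases, and Pdp1 and Pdp2 for the phosphatases. They were chosen by gene name, with the earlier finding in these data that Pdk4 was higher without pyruvate already known, so the Pdk4 values are a description and carry no test. These 10 genes were represented by 16 of the 39429 probes for mouse transcripts on each array, out of 31087 gene names. Probes were single for 6 of the genes, 2 each for Pdk2 and Pdp2, and 3 each for Pdhb and Pdp1.

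The cells were kept for 1 h in DMEM with 5% fetal bovine serum, and the medium held 5 or 15 mM glucose and either 1 mM pyruvate or none. The 4 conditions are [Glc 5 mM/Pyr (+)] and, with pyruvate left out, [Glc 5 mM/Pyr (−)] at the lower glucose concentration, then [Glc 15 mM/Pyr (+)] and, again with pyruvate left out, [Glc 15 mM/Pyr (−)] at the higher one. Where 4 values are given in a row, they follow this order of conditions. A single RNA sample per condition was measured on 1 one-colour array, and all 4 arrays shared a slide. The conditions therefore had no replicates, no test was made on any difference, and the spread between cultures was not measured. IMS32 is a single immortalized line, so the values stand for that line in culture and not for Schwann cells in nerve. On the 4 arrays 72.2 to 77.0% of the probes were well above background, as judged by the scanner software, and no spot was saturated. Of the 15 Schwann cell markers checked, 15 were well above background on every array, including the transcription factor Sox10 at an intensity of 4837 to 5667 and the calcium-binding protein S100b at 3519 to 4318. The neuregulin receptor gene Erbb3 was faint, with intensities of 15.6 to 22.2. Markers of fibroblasts were also present, with 7 or 8 of 8 well above background and the collagen gene Col1a2 at 85784 to 91959, and so were 6 of 6 macrophage markers. Of the neuron markers 3 or 4 of 6 were well above background, with the synaptic gene Snap25 at 5469 to 9340, and of the endothelial markers 2 or 3 of 4. Both levels without pyruvate lay above both levels with it, as they did for Pdk4, for 3 of 15 Schwann cell markers (S100b and Sox10 among them), 1 of 7 measured fibroblast markers, 1 of 6 macrophage markers, 2 of 4 measured neuron markers and 1 of 2 measured endothelial markers, beside 14.3% of 29039 probes. The neuron markers were Tubb3 and the faint Rbfox3, which had intensities of 11.8, 20.2, 8.9 and 42.7, and the macrophage marker was Cd68, with 1199, 1257, 969 and 1816. The part of other cells in the Pdk4 values was not tested. The summed intensity of the Schwann cell list was 120378, 113915, 107775 and 101100 in the order of conditions, that of the fibroblast list 104639, 105138, 99153 and 98413, and that of the macrophage list 15869, 14569, 10854 and 11170. The summed neuron list had 9717, 8790, 6451 and 5994, and the endothelial list 5714, 5545, 4241 and 5151. These sums were not scaled between arrays, whose 75th percentiles were at intensities of 1789, 1742, 1598 and 1632. Col1a2, Itgam, Snap25 and Kdr made up most of the fibroblast, macrophage, neuron and endothelial sums.

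In the complex, the E1 enzyme decarboxylates pyruvate and consists of alpha and beta subunits, encoded by Pdha1 and Pdhb. E2, encoded by Dlat, transfers the acetyl group to coenzyme A, and Pdhx encodes the protein that docks the E3 enzyme. The pyruvate dehydrogenase kinases phosphorylate E1 alpha and inactivate the complex, and the phosphatases Pdp1 and Pdp2 encode remove the phosphate. Pyruvate itself is known to inhibit the kinases. Pdk4 is known for its induction in fasting, through PPAR and FoxO factors and glucocorticoids, which spares pyruvate in muscle and heart, and Pdk1 is known as a target of HIF-1.

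Pdk4 was the one member whose probe differed by 2-fold or more between any pair of conditions that were compared. Its transcript signal was at the edge of detection with pyruvate and about 6 times as bright without it, at both glucose concentrations, by the processed intensity. The size rests on how the background of this dim spot was subtracted. With its local background the log2 difference at 15 mM glucose was 1.98 in place of 2.67, and the spot lay in a patch of raised background there. With normexp correction Pdk4 passed 2-fold at neither concentration, at 0.93 and 0.50. The remaining 9 genes differed by less than 1.5-fold at every probe in every comparison. Among these, Pdp2, the phosphatase gene, had the largest difference, and the subunits and the other kinases lay within 2 times the within-array error of a comparison.

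The Pdk4 signal comes from 1 probe of 60 bases, placed by the array design at base 3303 of the transcript NM_013743 and at chr6:5433441-5433500 in the mm9 build. The first 30 of its bases are shown because every Pdk4 value rests on this single probe, together with those of the brighter Pdp2 probe at chr8:107120490-107120549, which carries the next largest difference. The Pdp2 probe begins at base 3238 of NM_001024606. The deposited files place the probes on transcripts but do not say whether a probe lies in coding sequence or in an untranslated region.
Pdk4 probe: tatgaacccatgggagactttaaactcttg
Pdp2 probe: gtcagcacttcagccatcgtcggcaaggct

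The intensity of Pdk4, after background correction and with the error that the scanner software gives for the spot, was 12.7 ± 2.56 in [Glc 5 mM/Pyr (+)]. Without pyruvate, in [Glc 5 mM/Pyr (−)], the value was 75.6 ± 7.98. At the higher glucose concentration the spot was not well above background in [Glc 15 mM/Pyr (+)], at 11.9 ± 2.9, and pyruvate-free [Glc 15 mM/Pyr (−)] gave 77.1 ± 8.13. Both arrays without pyruvate were thus high and both arrays with it were low, and the values of these pairs did not overlap. Levels, given as log2 intensity after division by the 75th percentile of its array, were -7.14, -4.53, -7.07 and -4.40. At 5 mM glucose Pdk4 was 2.61 higher on the log2 scale without pyruvate, a 6.11-fold difference, where the within-array error, combined from the software's errors of both spots, was 0.33. At 15 mM glucose the level with pyruvate was not well above background, and its measured value was taken as an upper limit. Against that value the difference was 6.37-fold, or 2.67 on the log2 scale. The error of 2.9 on that dim spot leaves a smaller difference possible, so 6.37-fold is a bound by this rule only. It is no floor under other background corrections either, as the bright spot had a local background of 50 against a subtracted surface of 33.8. RNA was taken from whole cultures, in which fewer cells with the transcript and less of it per cell cannot be told apart. Between the pyruvate-free cultures Pdk4 was 0.12 higher on the log2 scale at 15 mM than at 5 mM glucose, less than the error of 0.22. With pyruvate present no glucose difference is given. The [Glc 15 mM/Pyr (+)] value, not well above background, was taken as an upper limit of -7.07, which lay above the measured -7.14 at 5 mM glucose.

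**Figure D1:**
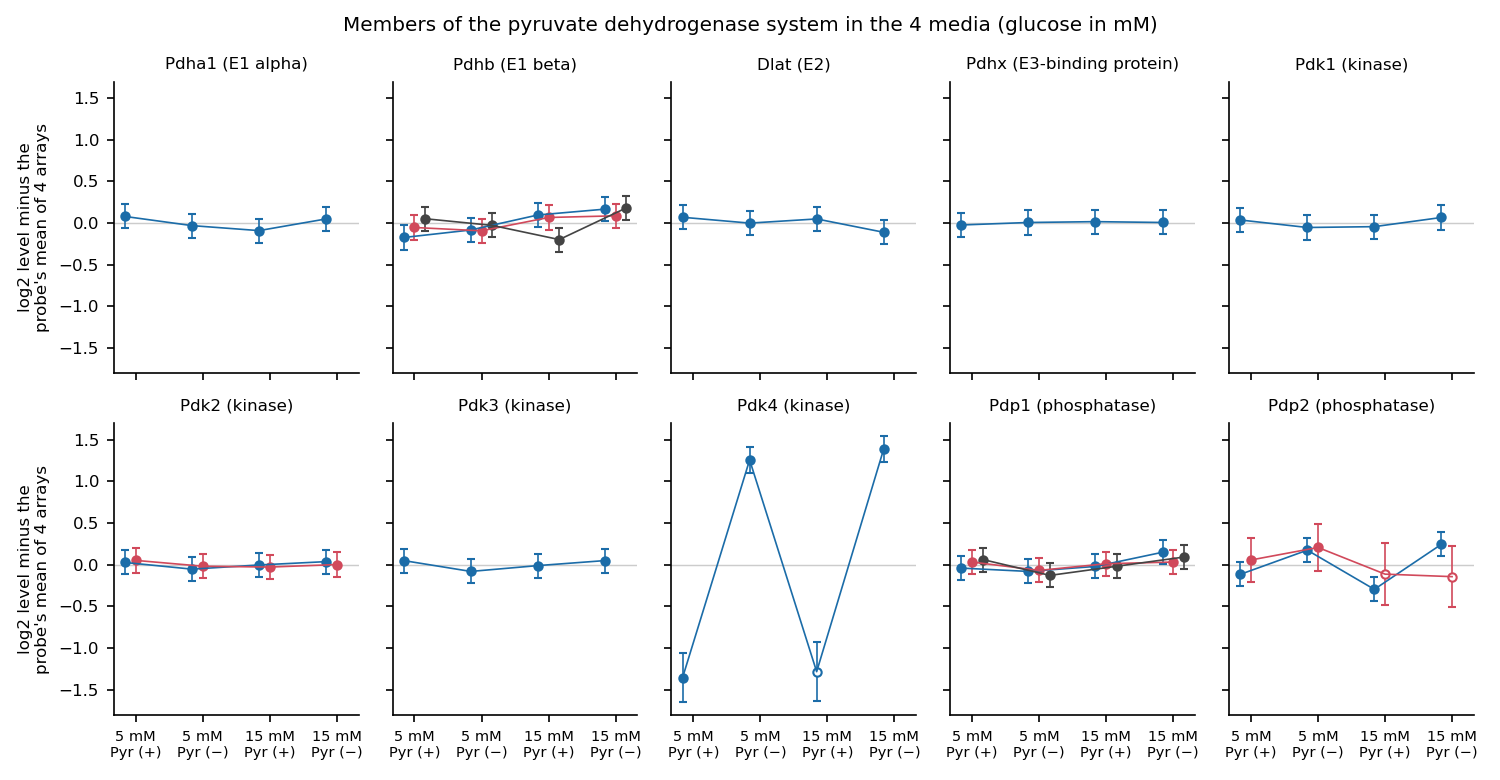
Level of each probe of the 10 genes on the 4 arrays (x axis, glucose and pyruvate in the medium), as log2 level minus that probe's own mean over the arrays (y axis). Colours mark different probes of 1 gene, bars are the within-array error given by the scanner software, and open points were not well above background. Pdk4 alternates between low with pyruvate and high without it over a range of 2.73, while the brighter Pdp2 probe spans 0.54.

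A 2-fold difference in either direction with pyruvate at 5 mM glucose was found for 1 of the 16 member probes, and for 2.68% of the 30599 probes measured on the array. At 15 mM glucose the member count was again 1, of 15 measured, beside 4.18% of 29577 probes. In the glucose comparisons 0 member probes differed by 2-fold, beside 2.55% of all probes with pyruvate and 4.38% without it. The Pdk4 probe was not measured in the glucose comparison with pyruvate. Higher without pyruvate by 2-fold were 1.31% of all probes at 5 mM glucose and 2.2% at 15 mM glucose. Dim probes pass this threshold more often. Among probes whose mean level lay within 0.5 of that of Pdk4 on the log2 scale, the shares were 3.17% of 3121 and 4.59% of 3117.

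The size of the Pdk4 difference and its presence at both glucose concentrations were less common than a 2-fold difference at one concentration. At 5 mM glucose 62 probes had a difference at least as high as that of Pdk4, itself included, and at 15 mM glucose 35 did. Within the probes of like signal these numbers were 8 and 6. A 2-fold higher signal without pyruvate at both concentrations was found for 49 of 29039 probes, or 0.169%, and for 12 of the 3117 probes of like signal, or 0.385%. When probes were ordered by the lower of their 2 pyruvate differences, Pdk4 was the second, at 2.61. The first was Gm21276 at 2.72, and Zfp286 at 2.36, Fam83g at 2.33 and Olfr984 at 2.30 came next. All of these were dim probes, with mean levels of -7.10 to -5.79. These counts and this order use the processed intensity, and none is given for other background corrections. With normexp correction Pdk4 had 0.93 at 5 mM and 0.50 at 15 mM glucose. Since Pdk4 was chosen with this difference known, its place in the order describes it and supports nothing further.

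**Figure D2:**
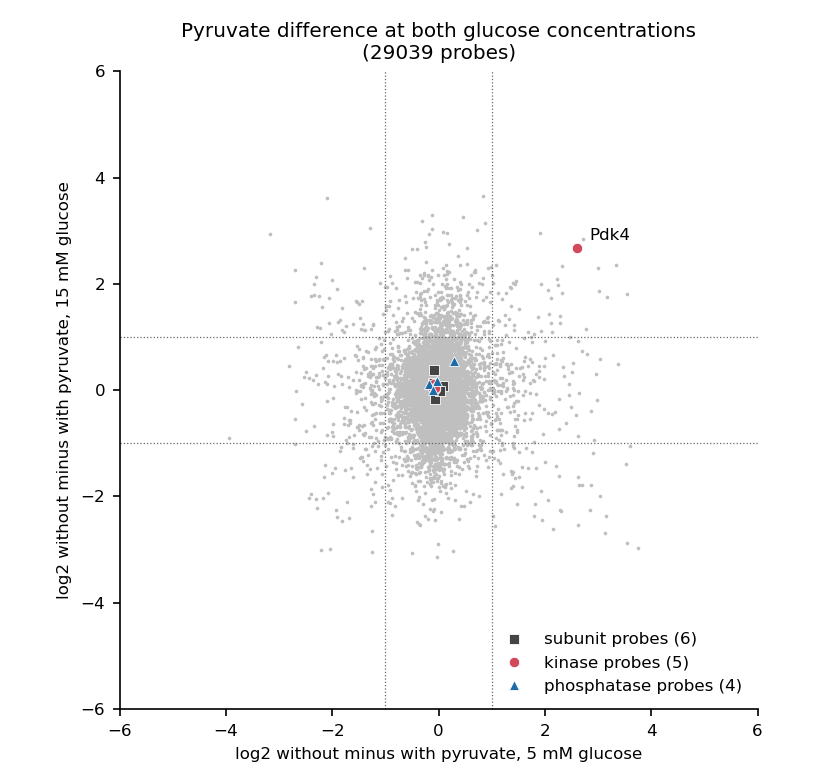
Pyruvate difference (log2, without minus with pyruvate) at 5 mM glucose (x axis) and 15 mM glucose (y axis) for 29039 probes in grey and the members in colour, 1 Pdp2 probe being left out as not measured at 15 mM glucose. Dotted lines mark 2-fold, values at background count as bounds, and Pdk4 stands at 2.61 and 2.67 while the other member probes lie near 0.

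**Figure D3:**
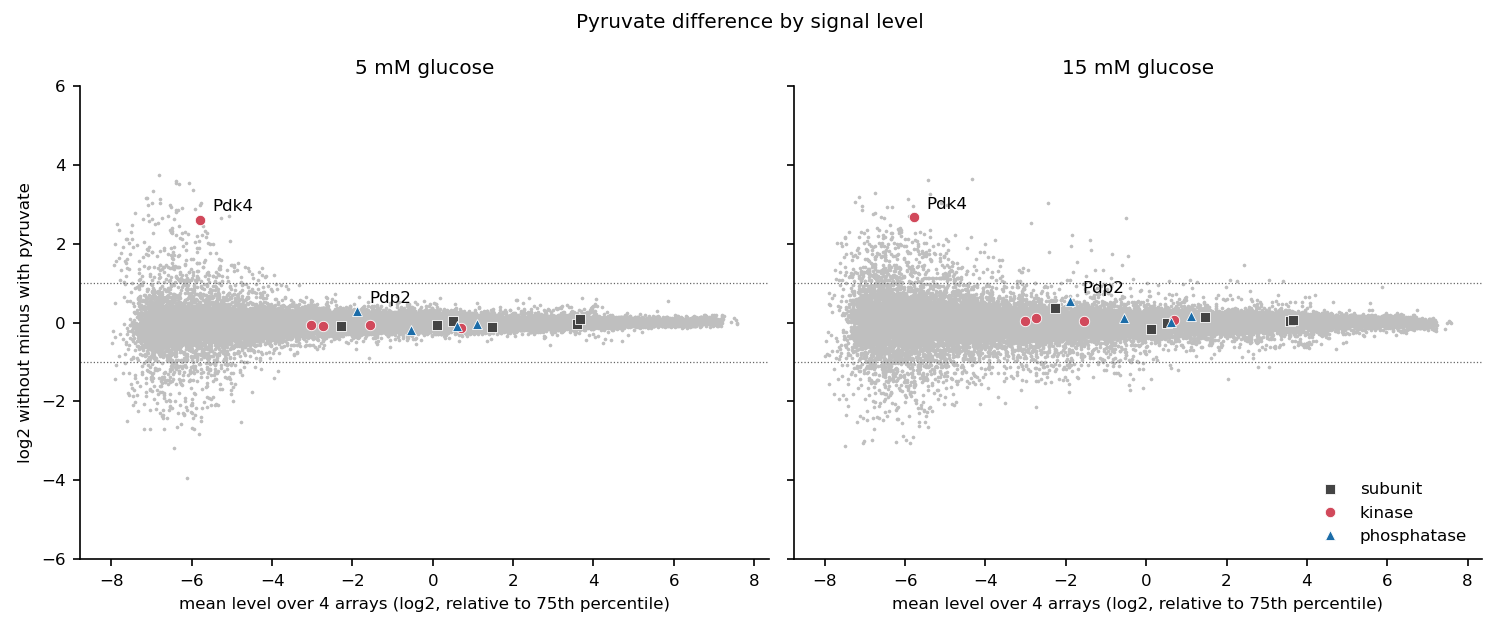
Pyruvate difference (y axis, log2, without minus with pyruvate) against the mean level of the probe over the 4 arrays (x axis, log2 relative to the 75th percentile), at 5 mM glucose on the left and 15 mM glucose on the right, with all probes in grey. The grey cloud widens at low levels, where Pdk4 lies, and the other members lie in the narrow part of the cloud except for the dim Pdp2 probe, which is not drawn.

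As Pdk4 was so dim, its spot was examined on each array before background subtraction. The mean over the pixels of the spot was 45.5, 102, 43.7 and 105, from 61 to 64 pixels. The SD over these pixels was 11.2, 31.4, 8.84 and 21.6. For spots of like intensity on the same array the median pixel SD was 9.92, 20.8, 9.7 and 20.6. The Pdk4 spot in [Glc 5 mM/Pyr (−)] was therefore less even than most, with 5.71% of like spots having an SD as high, although the software flagged no member spot as an outlier.

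The local background around the Pdk4 spot was 29, 30 and 30 on the first 3 arrays and 50 in [Glc 15 mM/Pyr (−)]. The median over that last array was 27.5, and only 3 of its 43020 spots, Pdk4 included, had a local background of 50 or more. Spots of the other members had local backgrounds of 23.5 to 33.0. Within 3 rows and columns of Pdk4 on the [Glc 15 mM/Pyr (−)] array, 9 spots had an intensity under 20 on each of the other arrays, and their median there was 26.1, with a range of 2.61 to 63.9. The same count on the other arrays gave only 3 or 4 spots, with medians of 2.61 to 7.02 and a highest value of 24.5, in [Glc 5 mM/Pyr (+)]. For each pyruvate comparison, 34 spots within the same distance of Pdk4 were well above background in both conditions. Their log2 differences had medians of -0.07 at 5 mM and 0.03 at 15 mM glucose. The highest, 2.29 and 2.66, were near those of Pdk4, and the lowest were -1.25 and -0.73. The processed intensity subtracts a smooth surface of 33.8 on the [Glc 15 mM/Pyr (−)] array and not the local value of 50. After subtraction of the local background in place of the surface, the Pdk4 spot had 16.5, 72.4, 13.7 and 55.5, and Pdk4 then stood 2.18 higher without pyruvate at the lower and 1.98 higher at the higher glucose concentration, on the log2 scale. The glucose difference without pyruvate became -0.29. The normexp correction also uses the local background, with an added offset of 50, which compresses dim spots. The Pdk4 value in [Glc 15 mM/Pyr (−)] thus lies in a patch of raised signal on the slide, and the part of that patch in the value beyond this subtraction was not tested. On the [Glc 5 mM/Pyr (−)] array 8.74% of spots had a local background as high as that at Pdk4.

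**Figure D4:**
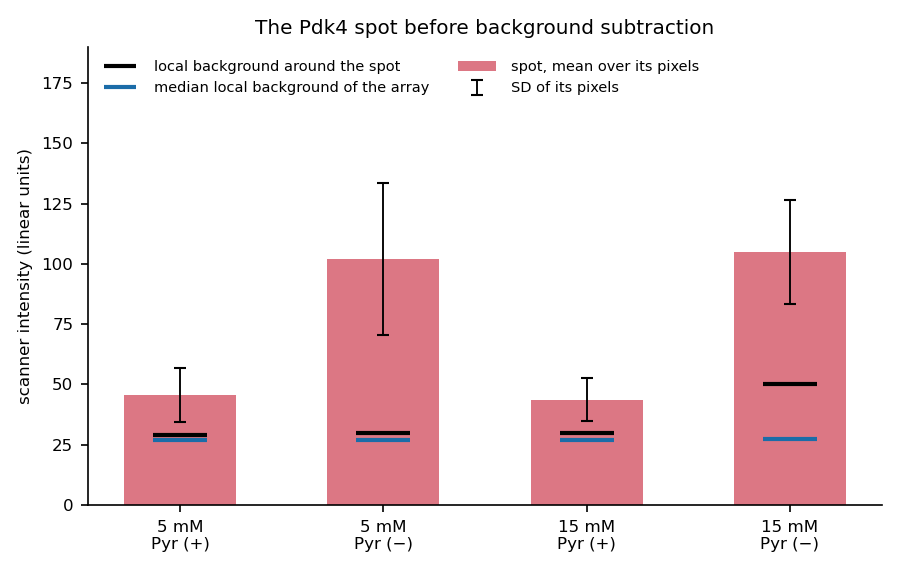
Scanner intensity of the Pdk4 spot (y axis, linear units) on the 4 arrays (x axis, glucose and pyruvate in the medium), as the mean over its pixels (bars) with their SD (error bars), beside the local background (black) and the array's median local background (blue). The spot stands at 102 and 105 without pyruvate against 45.5 and 43.7 with it, and the local background rises to 50 in [Glc 15 mM/Pyr (−)] alone.

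The other kinase genes gave flat signals that were well above background on all 4 arrays. Pdk1, whose product is the kinase tied to the response to low oxygen, had intensities of 273, 250, 232 and 255. The 4 levels, from -2.80 to -2.68, differed by less than the error of a single comparison, which was 0.20 to 0.21 on the log2 scale. Pdk2 encodes the kinase found in most tissues, and both of its probes were flat, from -1.61 to -1.52 at one and from -3.05 to -2.97 at the other. Pdk3 had levels of 0.74, 0.61, 0.68 and 0.74. Without pyruvate the 4 probes of these kinases were lower by 0.07 to 0.13 at 5 mM glucose and higher by 0.03 to 0.11 at 15 mM glucose, on the log2 scale, and none of these values was larger than its error. For Pdk2 the sign at 15 mM glucose turned to -0.01 with normexp background correction.

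The subunit genes of the complex showed no pyruvate difference beyond the error of a comparison except at the dimmest Pdhb probe. Pdha1, the E1 alpha subunit gene whose product the kinases phosphorylate, had intensities of 5238, 4736, 4167 and 4688. Its level was lower without pyruvate by 0.11 at 5 mM glucose and higher by 0.14 at 15 mM glucose on the log2 scale, each less than the error of 0.20. Pdhb, the E1 beta subunit gene, was measured by 3 probes. The pair on the reference transcript NM_024221 gave pyruvate differences of -0.04 to 0.09 on the log2 scale. These 2 probes were brighter in 15 mM than in 5 mM glucose by 0.12 to 0.27 on the log2 scale, and the largest of these values was 1.3 times its error. The remaining Pdhb probe, placed on the cDNA AK084507, had intensities of 380, 350, 286 and 381. Its pyruvate difference at 15 mM glucose was 0.38 on the log2 scale, 1.9 times the error, and the pair on NM_024221 had 0.03 and 0.07 there, so the probes of this gene disagreed.

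Dlat, the E2 gene, had levels of 0.18, 0.11, 0.16 and 0.00, and it was lower without pyruvate by 0.16 at 15 mM glucose on the log2 scale. This was the lowest value of any member in that comparison, and it was below the error of 0.20. Pdhx, which encodes the E3-binding protein, was the flattest member, with levels of 0.49, 0.52, 0.53 and 0.52 over the 4 arrays.

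Of the phosphatase genes, Pdp2 had the larger differences. The brighter of its probes had intensities of 443, 527, 351 and 520. Both values without pyruvate were above both values with it, as for Pdk4, but the difference was smaller. These were the 2 of 15 measured member probes with such an order, a share near the 14.3% of all probes. The Pdp2 difference was 0.29 with 5 mM and 0.54 with 15 mM glucose on the log2 scale, or 1.22-fold and 1.45-fold, which was 1.4 and 2.6 times the error of 0.20. The second Pdp2 probe, at base 815 of the same transcript, was near background with intensities of 9.79 to 13.4, and it was well above background on the 2 arrays with 5 mM glucose only. Its pyruvate difference there was 0.15 with an error of 0.39 on the log2 scale, so it gave no second measurement of the gene at 15 mM glucose. Pdp1, which encodes the calcium-stimulated phosphatase, was measured by 3 probes on NM_001098230. Its pyruvate differences were -0.19 to -0.04 at 5 mM glucose and 0.01 to 0.17 at 15 mM glucose on the log2 scale, and none exceeded its error.

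A difference larger than 2 times its within-array error was found with pyruvate at 5 mM glucose for 1 of the 16 member probes, which was Pdk4, beside 4.4% of all probes well above background in both conditions. At 15 mM glucose it was found for 1 of the 14 member probes measured on both arrays, the brighter Pdp2 probe, beside 10.3% of all probes. In the glucose comparisons the count was 0 of 14 with pyruvate and 0 of 15 without it, beside 4.93 and 11.5%. The within-array error covers the spot and not the culture. For bright spots the software's error rose in proportion to the intensity. In [Glc 5 mM/Pyr (+)] it was 524 at 5238 for Pdha1 and 2081 at 20811 for a Pdhb probe. The error of 0.20 in most comparisons is the size of this proportional term. The spread of a difference between repeated spots was smaller, at 0.128 on the log2 scale, so a difference below its error can exceed that spread. The median log2 difference over the member probes, without minus with pyruvate, was -0.066 in the lower and 0.067 in the higher glucose concentration, where all probes had -0.018 and 0.028. For glucose it was -0.044 with pyruvate and 0.121 without it, beside -0.016 and 0.034. Leaving out Pdk4, 11 of 15 member probes were lower without pyruvate at 5 mM glucose and 12 of 14 were higher at 15 mM glucose. The medians of all probes, -0.018 and 0.028, had the same signs. All probes were not counted by direction, so these member counts are not a result about the members. The member medians are smaller than the error of any one probe.

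Other genes of the pathway were followed in 8 lists with 109 genes. With pyruvate as the variable, 0 of 103 measured genes differed by 2-fold at 5 mM glucose and 3 of 101 at 15 mM glucose, beside the 2.68 and 4.18% of all probes given above, so that counts at or near 0 are not a result about any list. The list counts are by gene, as the mean over its measured probes, while the shares of all probes are by single probe. Of 14 genes in the list for the rest of the complex and its cofactors, which holds the E3 gene Dld, the regulatory phosphatase subunit gene Pdpr, and genes for lipoate and thiamine supply, 12 were measured with pyruvate as the variable at 5 mM glucose and 10 at 15 mM glucose. None differed by 2-fold, and the medians were 0.000 and 0.120 on the log2 scale. Dld, which regenerates the lipoyl group of E2, had the largest difference measured on both arrays at 5 mM glucose, at -0.13. Pdpr, well above background in [Glc 5 mM/Pyr (+)] alone at an intensity of 13.0, had a bound of -0.19. Iba57, an iron-sulphur cluster gene needed to make lipoate, had the largest at 15 mM glucose, at 0.46. In the sister complexes, which use the same chemistry on 2-oxoglutarate and branched-chain oxoacids, 9 of 9 genes were measured and 0 differed by 2-fold. The largest differences there were 0.19 for the branched-chain E2 gene Dbt at 5 mM glucose and -0.28 for Dhtkd1 at 15 mM glucose.

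Genes for the entry, formation and other uses of pyruvate were measured for 18 of 19 names, and 1 differed by 2-fold with pyruvate by the mean over its probes. Ldhc, the lactate dehydrogenase of testis, was not well above background on 3 of the 4 arrays at its brighter probe and had an intensity of 82.0 in [Glc 15 mM/Pyr (−)], while its other probe stayed between 9.56 and 11.7. The 2 probes therefore disagreed. Slc16a1, the gene of the monocarboxylate transporter MCT1, was lower by 0.25 on the log2 scale without pyruvate at 5 mM glucose. Slc16a3, the gene of the lactate exporter MCT4, was higher by 0.56 at 15 mM glucose, with 0.56 and 0.55 at its probes.

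Genes that share known regulators with Pdk4 were listed to show whether they moved beside it. None of the 16 PPAR targets of fatty acid oxidation that were measured, of 18, differed by 2-fold in either pyruvate comparison, and the median log2 differences of this list were 0.018 at the lower and 0.117 at the higher glucose concentration. Angptl4, a lipoprotein lipase inhibitor gene and a well-known PPAR target, had intensities of 1990, 1580, 1710 and 1920 and was lower without pyruvate at 5 mM glucose by 0.30. Acot2, a mitochondrial acyl-CoA thioesterase gene, had the largest difference at 15 mM glucose, at 0.25. Of 13 FoxO targets 0 differed by 2-fold, with medians of -0.032 and 0.152. The muscle ubiquitin ligase gene Trim63 had the highest value at 5 mM glucose, at 0.53, as the mean of 1.02 and 0.05 at its probes. Trib1, a pseudokinase gene, was lower at both concentrations, by 0.34 and 0.39.

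Of 10 glucocorticoid receptor targets 1 differed by 2-fold. This was Dusp1, a MAP kinase phosphatase gene that also belongs to the immediate-early response, with intensities of 528, 529, 420 and 1530. It was higher without pyruvate by 0.04 and 1.84 on the log2 scale, at the lower and the higher glucose concentration. Unlike Pdk4, Dusp1 was high on the [Glc 15 mM/Pyr (−)] array alone. Errfi1, a feedback inhibitor gene of the EGF receptor, was lower by 0.44 and 0.25. The list medians were -0.045 and 0.073.

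The HIF-1 target list, which bears on Pdk1, held 12 genes, of which 11 were measured and 1 differed by 2-fold. Ankrd37, an ankyrin repeat gene induced by low oxygen, had intensities of 166, 267, 159 and 1320, with differences of 0.73 and 3.02 without pyruvate on the log2 scale. The HIF-1 list medians were 0.043 and 0.173. Among 14 transcription factor and coactivator genes known for Pdk genes, 14 were measured and 0 differed by 2-fold with pyruvate, with medians of -0.041 and -0.015. Foxo4, a FoxO factor gene, had the largest differences, at -0.38 and 0.98, but its probes disagreed. The brighter of them had intensities of 52.6, 27.3, 38.4 and 125, and the other stayed between 19.5 and 24.2. By the mean of these probes, Foxo4 was also higher at 15 mM than at 5 mM glucose when pyruvate was absent, by 1.20 on the log2 scale.

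Between the glucose concentrations, 0 of 102 measured genes of these 8 lists differed by 2-fold with pyruvate present and 4 of 101 without it. These are shares of 0 and 3.96% by gene, beside 2.55 and 4.38% of all probes taken singly. The 4 genes were Foxo4, Ldhc by a lower bound, Dusp1 at 1.63 and Ankrd37 at 2.39 on the log2 scale, all higher at 15 mM glucose. In that comparison Pdk4 had 0.12 by the processed intensity and -0.29 after subtraction of the local background.

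Profiles over the 4 arrays that lay closest to that of Pdk4 were found among 1296 probes with a gene symbol that were well above background on at least 3 arrays and spanned at least 1 on the log2 scale. The measure was the Euclidean distance between levels centred on each probe's mean. The 5 closest genes were Bcl2l15 at a distance of 0.63, Gm32742 at 0.65, Gm29776 at 0.73, Zfp420 at 0.93 and Olfr33 at 1.22. Bcl2l15, a gene of the BCL2 family, had intensities of 17.0, 77.8, 13.0 and 56.3. Zfp420, a zinc finger gene, had 35.0, 93.8, 25.4 and 108. All 5 were dim probes like Pdk4, and a likeness over 4 arrays is a description with no replicate behind it.

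The promoter of Pdk4 is shown since it is the member whose signal differed. The 250 bases before the annotated start in RefSeq, on the minus strand of GRCm38.p6 at chr6:5496279-5496528, are given from 5′ to 3′ with capitals marking the match to the CCAAT box.
Pdk4 promoter: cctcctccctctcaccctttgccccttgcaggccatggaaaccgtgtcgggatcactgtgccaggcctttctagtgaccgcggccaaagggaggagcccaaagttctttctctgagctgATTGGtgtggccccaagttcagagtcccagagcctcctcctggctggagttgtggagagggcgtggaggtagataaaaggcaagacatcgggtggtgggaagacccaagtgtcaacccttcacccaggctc
This stretch was searched on both strands for AGGTCA, the half-site of nuclear receptors such as the PPARs, and for the FoxO motif GTAAACA. It was also searched for the HIF-1 core motif ACGTG, for the E-box CACGTG, every match of which also holds the HIF-1 core, and for the glucocorticoid receptor half-site AGAACA. The CCAAT box and the GC box, GGGCGG, were searched as general promoter elements. The motifs of regulated factors and the GC box had 0 matches in Pdk4. The CCAAT box had 1 match, on the opposite strand, beginning 131 bases before the start. Of 32851 mouse promoters of the same length, 14.0% held the nuclear receptor half-site, 3.17% the FoxO motif, 16.6% the HIF-1 core, 6.02% the E-box, 16.1% the glucocorticoid half-site, 33.8% the CCAAT box and 32.7% the GC box. No match says only that these letters are not in this window.

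Promoters were given for 9 of the 10 genes, in 11 windows, since Pdk1 and Pdk2 each had 2. The nuclear receptor half-site and the FoxO motif were in 0 of the 11 windows. The HIF-1 core was found in the Pdhb, Pdk3 and Pdp2 windows and in 1 of the Pdk2 windows, beside 16.6% of all promoters. In Pdp2 and Pdk2 it was part of an E-box. The CCAAT box was in the Pdhb, Pdk3, Pdk4 and Pdp2 windows and 1 Pdk2 window, beside 33.8%. The GC box was in the Pdhb, Dlat, Pdhx, Pdk3 and Pdp2 windows and 1 Pdk1 window, beside 32.7%. Every window but the second of Pdk1 was above the median promoter in G and C, and these shares were not matched for it. The glucocorticoid half-site was found in 1 of the Pdk1 windows, with 2 matches. The Pdk4 window had 58.8% G and C and 6 CpG sites, the fewest CpG sites of any member apart from the second Pdk1 window with 2. Over the 32851 mouse promoters the medians were 52.4% and 6, so the Pdk4 window was at the median in CpG sites.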

How the data were processed

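Total RNA of IMS32 cells was labelled with Cy3 and hybridized to Agilent Whole Mouse Genome arrays. The deposited scanner files hold, per the file headers, the spot intensity that Feature Extraction 11.5.1.1 corrected for background and spatial trend, its error, and flags, without scaling between arrays. The authors also deposited a table of the same signal divided by its 75th percentile on each array, a ratio. GeneSpring GX is named without settings.

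Control and outlier spots were left out, spots of 1 probe were averaged, and each log2 intensity was set against the 75th percentile over transcript probes. A probe had to be well above background in 1 of the 2 conditions compared. Where it was so in 1 only, the dim side was set to the higher of its own level and the lowest level well above background on that array, giving a bound. Several measured probes of 1 gene were averaged. Differences were counted at 2-fold. The members and gene lists were chosen with earlier results of these data known. The text names all members, list genes past 2-fold, the largest difference of each list with pyruvate at each glucose concentration, and the 5 profiles nearest to Pdk4. Markers and the neighbours of Pdk4 in the order of differences are named outside this rule. The local background alternative was added after seeing the data. The fold count was tested on simulated data. Normexp, quantile and loess used limma 3.58.1 in R 4.3.3, and the rest Python 3.11.15, numpy 2.4.6 and pandas 2.3.3. With 1 array per condition, the number of arrays limits the precision.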

Additional observations from a re-analysis of the deposited data

How the results depend on the processing

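Of 387 recalculated differences of member genes, 349 moved by less than 0.128 on the log2 scale, the spread of a difference between repeated spots, 38 moved further, and 0 turned a 2-fold difference around. The 75th percentile over probes above background, quantile normalization, cyclic loess, the deposited ratio, no filter on dim probes, a 1.5-fold threshold and the local background left the member counts at 1, 1, 0 and 0. With normexp and an offset of 50 the counts of member probes past 2-fold with pyruvate became 0 and 0, as Pdk4 came to 0.93 at the lower and 0.50 at the higher glucose concentration. The added offset compresses dim probes, and this alternative also subtracts the local background of 50. With the filter that keeps a probe if every array had it well above background, the counts were again 0 and 0, since Pdk4 was left out by construction. Scaling to the spike-in probes moved 29 of 39 member differences. The median over member probes became -0.232 for pyruvate at 5 mM glucose, and for the glucose comparisons -0.364 in the presence and -0.054 in the absence of pyruvate, while the median of all probes became -0.185, -0.336 and -0.142. Under this scaling Pdk4 was higher without pyruvate by 2.44 and 2.65. Pdp2 stayed higher without pyruvate at both concentrations under every alternative, with 0.05 to 0.29 and 0.25 to 0.54. The pyruvate differences of Pdhb and Pdhx at 5 mM glucose and of Pdk2 at 15 mM glucose changed sign under 1 alternative each. Glucose differences were less stable in sign, with a change in at least 1 glucose comparison for every member gene except Dlat. Without pyruvate the glucose difference of Pdk4 changed sign under 3 of 9 alternatives. Leaving out an array or blocking by slide was not run, as each condition has 1 array and all share a slide. No paired analysis was possible because each condition has 1 array. Faint signal limits Pdk4, since its levels with pyruvate lie near background.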
